A study of Mus musculus with 12 samples.

Results

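Testis transcription was compared between C57BL/6 male mice at postnatal month 6 (6M) and month 12 (12M), gene by gene. The members are the 6 libraries that carry these ages in their labels, 3 mice at each age, of 12 libraries in the series, and 6M-3 stands for the library of mouse 3 at 6M. C57BL/6 is an inbred laboratory strain, the labels give the mice as wild type, and no treatment is named. The other 6 libraries, from mice at months 3 and 18 (3M and 18M), served for a separate comparison. Whether mice of an age were littermates is not known. Each library holds whole testis, so a lower level of a transcript made by a cell type can come from fewer of those cells or from less RNA in each, and these cannot be told apart.

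The testis holds germ cells in seminiferous tubules, which Sertoli cells support, and Leydig cells in the tissue between the tubules. Leydig cells make testosterone from cholesterol: STAR brings cholesterol into the mitochondrion, CYP11A1 cuts its side chain to give pregnenolone, and CYP17A1, the HSD3B enzymes and HSD17B3 complete the conversion. Luteinizing hormone drives this synthesis through its receptor LHCGR. A lower output of testosterone with age is a known feature of rodent and human testis.

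The deposited read counts summed to 50924104 to 62179449 per library, and 94.3% to 94.9% of them lay in transcripts that match, lie within or share exons with a RefSeq gene. These reads were summed per gene, giving 24336 genes, of which 18086 had enough reads to be tested. Levels are given as CPM, the read count scaled to library size after TMM normalization between libraries. Sums of CPM over a gene list are scaled to library size only, without the TMM factors, which lay between 0.982 and 1.036. CPM is not divided by length, so it compares ages and not genes. Across genes, log2 levels correlated with a Pearson's r of 0.991 to 0.994 between libraries of the same age and 0.989 to 0.994 between libraries of different ages. Of the 6 libraries, 6M-3 and 12M-3 lay farthest from the rest on the first principal component, which held 29.3% of the variance. On the second (21.8%), both were below 0, at −18.8 and −12.0, and all other libraries were above 0. The defining markers of Leydig cells (Insl3), Sertoli cells (Clu) and spermatids (Prm2) had reads in every library. Of 16 markers of epididymis, Lcn5, Adam7, Adam28, Gpx5 and Spint4 had no reads in any of the 6 libraries. Of 7 markers of mast cells, the same was true of Cma1, Mcpt4, Tpsb2, Fcer1a and Ms4a2. The other markers of both lists had reads. The epididymis list summed to 42.7 to 45.2 CPM at 6M and 40.8 to 54.3 CPM at 12M. The mast cell list summed to 24.9 to 28.8 CPM at 6M and 24.3 to 26.4 CPM at 12M.

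Few genes changed between 6M and 12M. The call needed an adjusted p (Benjamini-Hochberg) of 0.05 or less in edgeR's quasi-likelihood test, and 11 of the 18086 genes (0.0608%) were called, 3 higher (0.0166%) and 8 lower (0.0442%) at 12M. The genes that fell were Cyp17a1, Cyp11a1, Klk1b21, Klk1b24, Ech1, Inpp5j, Tmem237 and Als2cr11, and those that rose were Vmn1r181, Gm13483 and Krt6a. At an unadjusted p of 0.05 or less there were 1584 genes (8.76%), 750 higher (4.15%) and 834 lower (4.61%). The median log2 fold change of all genes was −0.0003 and the median size of a change was 0.111. In 3002 genes (16.6%) the libraries of the ages did not overlap, with all 12M libraries above all 6M libraries in 1629 (9.01%) and below in 1373 (7.59%). DESeq2 called more genes, 71 lower (0.322%) and 28 higher (0.127%) of 22048 with reads. Shares of all genes given for DESeq2 are of these 22048, whether or not a gene received an adjusted p. On simulated counts with the spread of these libraries, the edgeR test called 86% of 2-fold and 20.5% of 1.5-fold changes. The changed genes had a mean of 1 CPM or more. Most changes of 1.5-fold would thus be missed at this depth and number of mice.

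Cyp17a1 and Cyp11a1, which encode the steroid 17α-hydroxylase and the side-chain cleavage enzyme, were lower at 12M. Cyp17a1 (chromosome 19, 46667165 to 46673000, minus strand of mm10) stood at 128, 136 and 139 CPM in the 6M libraries and at 89.0, 82.3 and 85.8 CPM in the 12M libraries. Each 12M library lay below each 6M library, and the gene fell by 0.65 on the log2 scale (SE 0.06, edgeR adjusted p = 0.0233). Cyp11a1 (chromosome 9, 57998024 to 58027031, plus strand) stood at 63.8, 68.4 and 54.4 CPM at 6M and at 33.7, 36.2 and 34.5 CPM at 12M. Again the ages did not overlap, and the 12M libraries were close together. It fell by 0.84 on the log2 scale (SE 0.09, edgeR adjusted p = 0.0393). Neither gene's longest annotated transcript shares a stretch as long as a read with another gene. The fold changes were steady: over 20 other ways of processing the data, that of Cyp17a1 lay between −0.70 and −0.63 and that of Cyp11a1 between −0.93 and −0.64. The calls were not: Cyp17a1 was called in 12 of the 20, with an adjusted p of up to 0.203, and Cyp11a1 in 9, with an adjusted p of up to 0.71. Leaving out 6M-2, 6M-3, 12M-1 or 12M-2 ended the call of Cyp17a1 (adjusted p = 0.0695, 0.107, 0.0931 and 0.0619), and leaving out any library but 6M-3 ended that of Cyp11a1 (adjusted p = 0.0535 to 0.129).

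Of 18 genes listed for Leydig cell steroid synthesis, 17 were tested. Of these, 2 were called lower, Cyp17a1 and Cyp11a1, and 0 higher. A log2 fold change below 0 was found for 13 of the 17, with a median of −0.36. Without overlap between the ages, 6 were lower (7.59% of all genes) and 1 was higher (9.01% of all genes). Among those not called, Hsd17b3, the enzyme of the last step to testosterone, had 13.96, 15.1 and 18.3 CPM at 6M and 10.005, 9.86 and 12.7 CPM at 12M. All 12M libraries lay below all 6M libraries (log2 fold change −0.54, SE 0.14, edgeR adjusted p = 0.498). Hsd3b1, which converts pregnenolone to progesterone, had 42.8, 49.1 and 53.1 CPM at 6M and 28.9, 36.5 and 36.8 CPM at 12M. Its ages did not overlap either (log2 fold change −0.50, SE 0.12, edgeR adjusted p = 0.478). The related Hsd3b6 overlapped between the ages, as did Star (log2 fold changes −0.41 and −0.37). Soat1, which stores cholesterol as ester, and Por, which passes electrons to CYP17A1, were the other members without overlap on the low side (−0.32 and −0.16). Cyp19a1, the aromatase that makes estrogen, was the member without overlap on the high side (0.16, edgeR adjusted p = 0.635). Lipe, a lipase that frees stored cholesterol and that germ cells also express, stood near 0 (0.03), as did the cholesterol-binding Tspo (0.03) and the 5α-reductase Srd5a1 (0.04). Summed over the list and scaled to library size only, 6M libraries held 1071 to 1183 CPM and 12M libraries 959 to 997 CPM. The median of the list stayed below 0 in every setting tried, from −0.62 to −0.16. It was −0.16 without 12M-1 and −0.22 without 6M-3.

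The hormones, receptors and transcription factors that mark Leydig cells had lower levels at 12M in most members, none of them called. Of 16 genes listed, 15 were tested and 13 had a log2 fold change below 0, with a median of −0.36. The ages did not overlap for 8 on the low side and 1 on the high side, against 7.59% and 9.01% of all genes. Insl3, the peptide hormone that Leydig cells secrete, had 518, 588 and 970 CPM at 6M and 450, 472 and 441 CPM at 12M. The 6M-3 library was far above the other 6M libraries, and the log2 fold change was −0.61 (SE 0.21, edgeR adjusted p = 0.531). Of the Insl3 transcript, 58.1% of all stretches of read length also occur in a transcript of the overlapping gene Jak3, so its reads are shared to an unknown extent. Lhcgr, the receptor of luteinizing hormone, had 2.75, 3.03 and 3.74 CPM at 6M and 1.72, 2.03 and 1.49 CPM at 12M. No library of one age reached into the other (log2 fold change −0.86, SE 0.18, edgeR adjusted p = 0.386). Ptgds, a prostaglandin D synthase, had 207, 224 and 272 CPM at 6M and 150, 158 and 169 CPM at 12M (log2 fold change −0.56, edgeR adjusted p = 0.299). Prlr, the prolactin receptor, had 17.5, 17.1 and 15.6 CPM at 6M and 10.4, 13.1 and 10.5 CPM at 12M (−0.56, edgeR adjusted p = 0.384). Both were without overlap. The growth factor receptor Pdgfra (−0.60), the hyaluronan-binding Itih2 (−0.45) and Nr5a1, the transcription factor SF-1 (−0.27), were lower without overlap too. Ren1, the renin gene, had under 0.5 CPM in every library and was the member on the high side. The list sums, scaled to library size only, lay at 876 to 1486 CPM at 6M and at 726 to 770 CPM at 12M. The highest was in 6M-3, which also had the largest TMM factor (1.036). Without 6M-3 the median of the list was −0.28. At an unadjusted p of 0.05 or less, 8 members were lower and 0 higher, against 4.61% and 4.15% of all genes. DESeq2 called 5 members of this list, 3 of the steroid synthesis list and 4 kallikreins lower, against 0.322% of all genes.

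**Figure D1:**
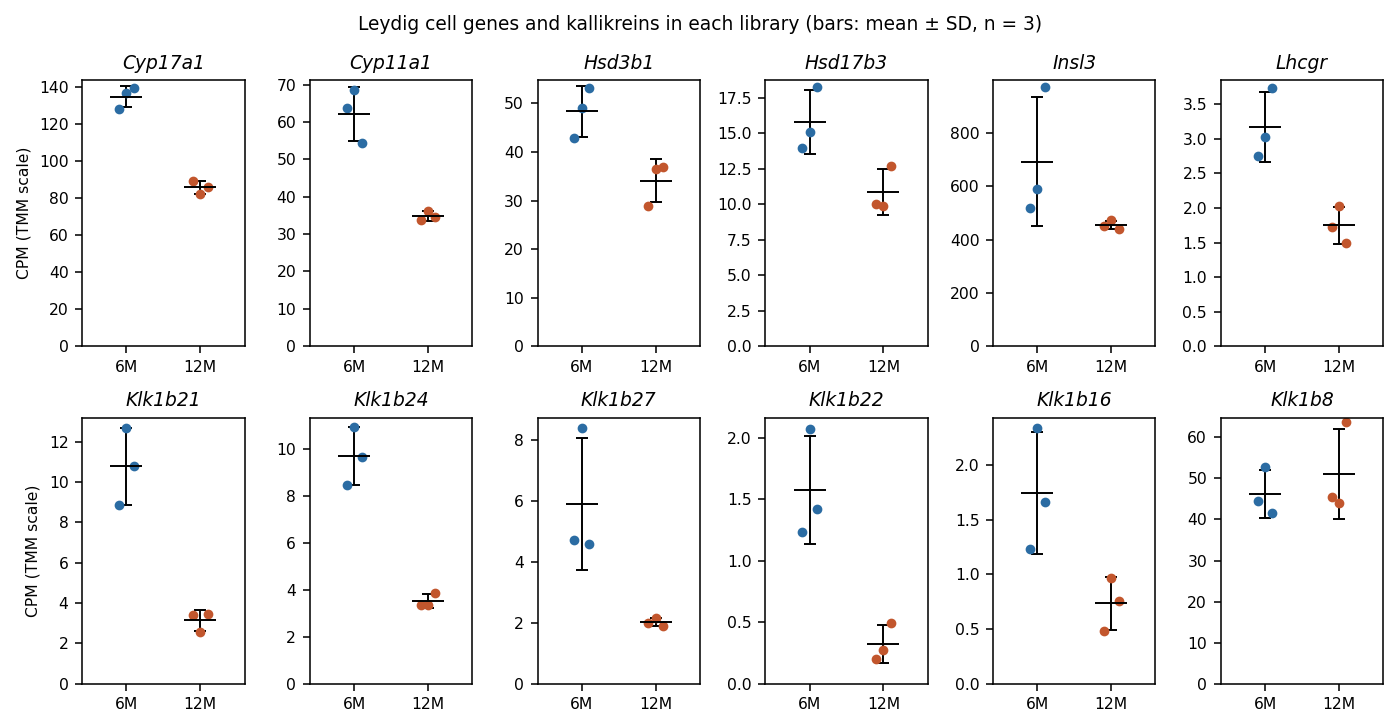
Read counts scaled to library size (CPM, TMM scale) of 12 genes in each of the 6 libraries, with points for libraries and bars for the mean ± SD of 3 mice. The 12M points of Cyp17a1, Cyp11a1, Klk1b21 and Klk1b24 lie below all 6M points, and those of Klk1b8 overlap the 6M points.

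The glandular kallikreins are secreted serine proteases encoded side by side on chromosome 7, and some of them are made by Leydig cells. Of 14 genes of the cluster, 12 were tested, and they fell into members with lower levels and members near or above 0. Klk1b21 (44102292 to 44106583) had 8.83, 12.7 and 10.8 CPM at 6M and 3.42, 2.54 and 3.46 CPM at 12M. Klk1b24 (44188236 to 44192451) had 8.48, 10.96 and 9.66 CPM at 6M and 3.37, 3.35 and 3.85 CPM at 12M. In both genes every 12M library lay far below every 6M library. Klk1b21 fell by 1.77 on the log2 scale (SE 0.18, edgeR adjusted p = 0.0233) and Klk1b24 fell by 1.46 (SE 0.13, edgeR adjusted p = 0.0158). Klk1b27 had 4.71, 8.40 and 4.59 CPM at 6M and 1.99, 2.15 and 1.90 CPM at 12M. It did not pass the test, though its ages did not overlap and its fold change was of like size (−1.55, SE 0.25, edgeR adjusted p = 0.24). Klk1b22, at 1.23, 2.07 and 1.42 CPM at 6M and 0.197, 0.276 and 0.497 CPM at 12M, gave −2.26 (edgeR adjusted p = 0.24). Klk1b16, at 1.23, 2.34 and 1.66 CPM at 6M and 0.484, 0.966 and 0.753 CPM at 12M, gave −1.25 (edgeR adjusted p = 0.498). These 5 genes were all lower without overlap, against 7.59% of all genes. The other 7 had log2 fold changes between 0.05 (Klk1b26) and 1.58 (Klk1b5, with reads missing in 1 library of each age), none of them called and all with overlap. The median of the 12 was 0.06 and depended on the setting: it was −0.13 without 12M-3, with 9 below 0, −0.01 without 6M-1, −0.48 over loci, −0.61 over the 10 genes with 1 CPM or more in 3 libraries and −1.24 over the 9 tested with exact reference transcripts only. Klk1b8 had 44.5, 52.8 and 41.5 CPM at 6M and 45.5, 43.9 and 63.6 CPM at 12M, a log2 fold change of 0.14 (SE 0.16, edgeR adjusted p = 0.778). Its RefSeq transcript took 5.44% of these reads at 6M and 0.0236% at 12M, with 2, 375 and 1 reads in the 6M and 1, 0 and 1 reads in the 12M libraries. The other reads lay in assembled transcripts of another structure, so these levels are not those of the annotated Klk1b8 transcript.

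The stretches of sequence upstream of these kallikreins were read from RefSeq promoters on GRCm38.p6, which has the coordinates of mm10. Printed are Klk1b24, Klk1b21, Klk1b27 and Klk1b22, which were lower at 12M, and Klk1b8, which was not. Klk1b16, lower as well, is not printed. All are on the plus strand of chromosome 7, and capitals mark bases that differ from Klk1b24 in the alignment. The stretches span chr7:44188081-44188200 (Klk1b24), chr7:44102172-44102291 (Klk1b21), chr7:44052148-44052267 (Klk1b27), chr7:44112507-44112627 (Klk1b22) and chr7:43950498-43950616 (Klk1b8).
Klk1b24: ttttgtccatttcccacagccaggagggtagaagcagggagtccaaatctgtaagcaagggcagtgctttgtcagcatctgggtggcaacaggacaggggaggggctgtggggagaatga
Klk1b21: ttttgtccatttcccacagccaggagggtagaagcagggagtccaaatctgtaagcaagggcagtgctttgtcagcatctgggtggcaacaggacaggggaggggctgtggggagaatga
Klk1b27: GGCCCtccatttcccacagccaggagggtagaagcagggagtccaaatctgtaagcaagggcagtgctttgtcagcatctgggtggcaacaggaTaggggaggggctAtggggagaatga
Klk1b22: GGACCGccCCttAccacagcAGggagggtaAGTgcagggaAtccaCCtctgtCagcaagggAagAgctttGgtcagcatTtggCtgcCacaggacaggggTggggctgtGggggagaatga
Klk1b8: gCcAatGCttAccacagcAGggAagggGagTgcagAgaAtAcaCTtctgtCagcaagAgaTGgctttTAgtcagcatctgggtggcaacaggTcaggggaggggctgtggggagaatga
Klk1b21 and Klk1b24, the called genes, have the same 120 bases here, and Klk1b27 differs at 7. The stretch of Klk1b22 carries 26 capitals, and that of Klk1b8, which lies before the start of its RefSeq transcript, carries 22. Over the 250 bases before the start site, Klk1b21, Klk1b24 and Klk1b27 were identical to each other at 91.9% to 97.7% of aligned bases, and to the other 11 genes at 78.5% to 86.5%. Among those 11, the range was 78.5% to 80.4% for Klk1b22 and 84.3% to 85.6% for Klk1b16, both lower at 12M. For Klk1b8 it was 82.6% to 84.7%, so the members lower at 12M were not alike as a group. The other genes were identical to each other at 73.1% to 92.2%. Among the annotated transcripts, 3.24% of the stretches of read length of Klk1b21 and 2.31% of those of Klk1b24 occur unchanged in another kallikrein. This count covers exact matches only, and not how reads were divided among overlapping assembled transcripts. The reads of Klk1b24 overlap with those of transcripts that run into Klk1b3, and over that whole locus the log2 fold change was −0.98 (edgeR adjusted p = 0.143). Klk1b24 took 77.4% to 80.3% of the reads of that locus at 6M and 54.0% to 59.1% at 12M. The call of Klk1b21 was lost without 6M-3, 12M-1 or 12M-3 (adjusted p = 0.121, 0.0957 and 0.0748) and that of Klk1b24 without 6M-3 or 12M-1 (adjusted p = 0.0925 and 0.0918). Over 20 other settings, Klk1b21 was called in 12, with an adjusted p of up to 0.697, and its log2 fold change lay between −1.91 and −1.42. Klk1b24 was called in 15, with an adjusted p of up to 0.143. The RefSeq transcript of Klk1b21 took 76.3% of its reads at 6M and 99.2% at 12M, and in 6M-3 it took 269 of 593 reads. That of Klk1b24 took 100% at both ages.

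The genes that rose are of other kinds. Vmn1r181 (chromosome 7, 23983961 to 23985048) encodes a vomeronasal receptor, of a family that senses pheromones in the nose. It had 3.40, 2.99 and 3.23 CPM at 6M and 8.03, 6.15 and 7.55 CPM at 12M, above all 6M libraries in each case. The RefSeq transcript of the receptor took 3.73% of these reads at 6M and 9.66% at 12M, and the others lay in a longer assembled transcript that overlaps it. The sum rose by 1.18 on the log2 scale (SE 0.13, edgeR adjusted p = 0.0416), but was called in only 5 of 19 other settings, and in 1 of the 6 in which a library was left out. Without 6M-3 its adjusted p was 0.213. Gm13483 (chromosome 2, 50296810 to 50433967), a predicted gene, had 5.12, 4.62 and 5.30 CPM at 6M and 10.7, 10.5 and 9.43 CPM at 12M. It rose by 1.03 (SE 0.10, edgeR adjusted p = 0.0233), and the same rule left it called in 10 of 20 settings. The transcripts that match the reference exactly took 42.5% of its reads at 6M and 7.25% at 12M, and with these alone its log2 fold change was −1.58 (edgeR adjusted p = 0.718).

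Krt6a, Inpp5j, Ech1, Tmem237 and Als2cr11 were called, but the reads of their whole loci hardly differed between the ages. A locus here is the set of all assembled transcripts, of any class, whose exons overlap on the same strand. StringTie divides the reads of overlapping transcripts by a model, and the kit keeps no strand, so the reads of overlapping genes and of antisense transcripts are uncertain. Als2cr11, a gene of sperm and testis, had 650, 637 and 604 CPM at 6M and 393, 369 and 371 CPM at 12M, and fell by 0.74 (SE 0.05, edgeR adjusted p = 0.00686). Its own transcripts took 88.8% to 89.8% of the reads of their locus at 6M and 53.9% to 56.1% at 12M, while the log2 fold change of the locus was −0.05. Inpp5j, an inositol polyphosphate phosphatase, had 2.75, 3.78 and 3.30 CPM at 6M and 0.484, 0.473 and 0.428 CPM at 12M (log2 fold change −2.82, SE 0.18, edgeR adjusted p = 0.00569). It took 87.9% to 97.3% of its locus at 6M and 8.71% to 13.6% at 12M, and the locus gave 0.19. At 3M it took 10.5% to 14.7% and at 18M 6.48% to 11.2%, so only the 6M libraries stood apart. Tmem237, a protein of the ciliary transition zone, had 43.1, 46.1 and 40.9 CPM at 6M and 15.1, 15.2 and 10.8 CPM at 12M (−1.66, SE 0.14, edgeR adjusted p = 0.0121). Of the reads of its locus, in which Mpp4 also lies, it took 42.3% to 45.2% at 6M and 12.7% to 15.4% at 12M, and the locus gave −0.09. Mpp4 itself went the other way without passing the test, at 18.1, 10.8 and 7.14 CPM at 6M and 40.7, 39.1 and 43.4 CPM at 12M (1.78, edgeR adjusted p = 0.24). Ech1, a mitochondrial and peroxisomal enzyme of fatty acid oxidation, had 49.1, 24.98 and 15.8 CPM at 6M and 1.72, 1.58 and 1.301 CPM at 12M (−4.29, SE 0.43, edgeR adjusted p = 0.0233). It took 23.2% to 79.0% of a locus shared with Lgals4 and Lgals6 at 6M and 1.74% to 2.68% at 12M, and the locus gave 0.05. Krt6a, an epithelial keratin, had 2 reads over the 6M libraries, all in 6M-1, against 492 over the 12M libraries, with 3.16, 2.43 and 3.30 CPM (edgeR adjusted p = 0.00569). The ratio was 225, with an exact 95% interval of 61.9 to 1863 that covers counting error only. Its share of the locus was 0% to 0.615% at 6M and 37.0% to 46.0% at 12M, and the locus gave 0.12. In all, 5 of the 11 called genes had a locus change under 0.2 in size and 6 a change of 0.2 or more. Cyp17a1, Cyp11a1, Klk1b21, Vmn1r181 and Gm13483 held all reads of their loci in every library, and their log2 fold changes over the locus were −0.68, −0.86, −1.80, 1.15 and 1.005. With 24049 loci tested in place of genes, none of the 11 was called (edgeR adjusted p = 0.0519 for Cyp17a1, the lowest).

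**Figure D2:**
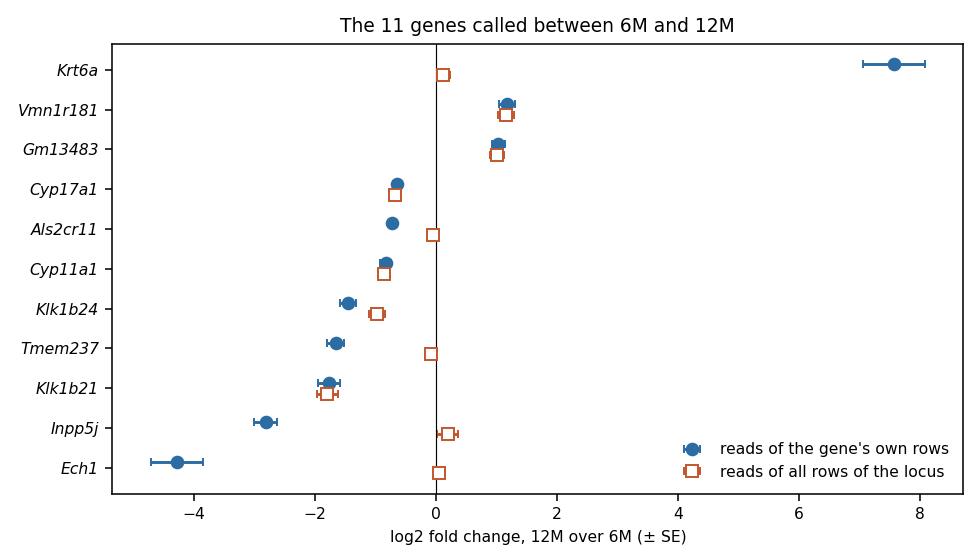
Log2 fold change of 12M over 6M (± SE) for the 11 called genes, from the reads of the gene's own transcripts (filled circles) and of the whole locus (open squares). The squares of Krt6a, Inpp5j, Ech1, Tmem237 and Als2cr11 lie within 0.2 of 0, and those of Cyp17a1, Cyp11a1 and Klk1b21 lie near their circles.

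**Figure D3:**
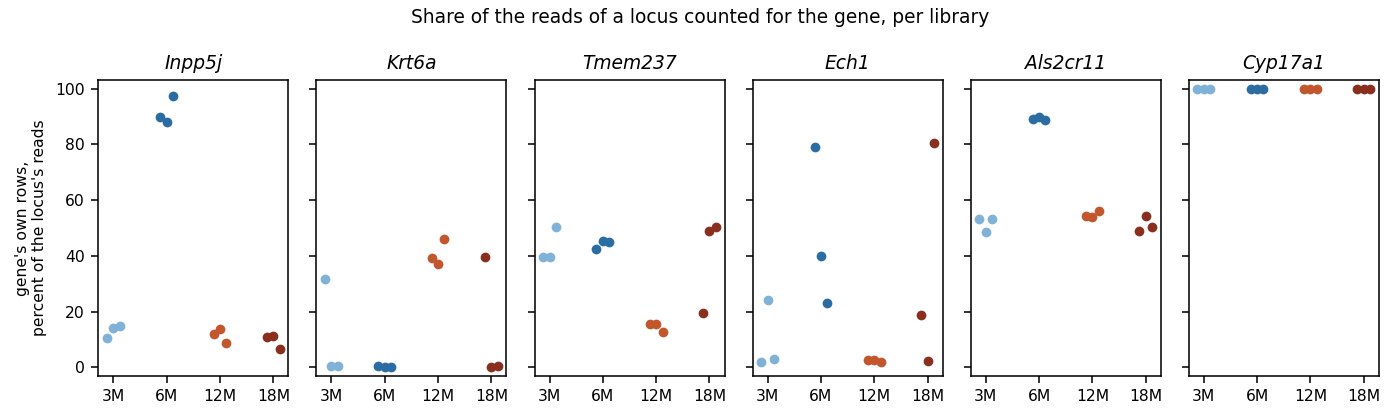
Percent of the reads of a locus that were counted for the gene, in each of the 12 libraries by age. Als2cr11 lies at 88.8% to 89.8% in the 6M libraries and at 48.7% to 56.1% in the libraries of the other ages, while Cyp17a1 holds 100% throughout.

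Genes of drug metabolism and of antioxidant defense, many of which Leydig cells also express, were compared too. Of these, Aldh1a1 and Ephx1 of drug metabolism lay near the threshold. Aldh1a1, a retinaldehyde dehydrogenase, had 186, 198 and 197 CPM at 6M and 135, 137 and 120 CPM at 12M. Ephx1, the microsomal epoxide hydrolase, had 56.2, 63.8 and 58.8 CPM at 6M and 31.2, 38.4 and 36.7 CPM at 12M. In both, the ages were clearly apart, with log2 fold changes of −0.57 (SE 0.07, edgeR adjusted p = 0.0661) and −0.75 (SE 0.09, edgeR adjusted p = 0.0737). Of 26 tested genes of drug metabolism, 22 were below 0 with a median of −0.22. Without overlap, 8 were lower and 0 higher, against 7.59% and 9.01% of all genes. The carboxylesterase Ces1d (−0.83) and the glucuronosyltransferase Ugt1a7c (−0.97) were among the 8. Of 37 antioxidant genes, 24 were below 0 (median −0.11), with 8 lower and 2 higher without overlap (7.59% and 9.01% of all genes). Without 6M-3, 21 were below 0 (median −0.006), with 10 lower and 6 higher without overlap (13.8% and 14.3% of all genes). Prdx6, a peroxiredoxin, had 93.0, 92.9 and 100.6 CPM at 6M and 50.9, 69.0 and 53.6 CPM at 12M, again without overlap (−0.72, edgeR adjusted p = 0.24). Of the 5 tested aldo-keto reductases of the 1C group, which act on steroids, 4 were below 0 with a median of −0.23. Akr1cl had 81.0, 97.5 and 104 CPM at 6M and 67.7, 72.5 and 65.8 CPM at 12M (−0.46, edgeR adjusted p = 0.453). Akr1c12, the member above 0, had 1.75, 1.96 and 1.66 CPM at 6M and 2.12, 2.76 and 2.19 CPM at 12M, without overlap (0.40, edgeR adjusted p = 0.559). Genes of cholesterol synthesis and uptake were below 0 in 19 of 26 (median −0.14). Without overlap, 9 were lower and 0 higher, again against 7.59% and 9.01% of all genes. The 3 members with the highest FPKM were Fdft1 (0.03), Sqle (0.00) and Fdps (−0.14). None of the genes in these lists was called by edgeR as described, but 2 genes of drug metabolism were called lower with robust dispersion, 1 gene each of drug metabolism and antioxidant defense without 12M-2 and 1 gene of drug metabolism without 12M-3. At an unadjusted p of 0.05 or less, 4.61% of all genes were lower. In these lists, 7 genes of drug metabolism, 6 antioxidant genes, 2 of cholesterol synthesis and 1 aldo-keto reductase were lower. DESeq2 called 4, 2, 0 and 1 members of these lists lower, against 0.322% of all genes.

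By number, extracellular matrix genes had more members without overlap on the low side than any other of the 36 lists. By share they did not: it was 51.4%, against 53.3% of the 15 genes that mark Leydig cells. Of 35 tested, 31 were below 0 with a median of −0.26, and 18 were lower and 2 higher without overlap, against 7.59% and 9.01% of all genes. Col1a2, a chain of type I collagen, had 12.5, 14.4 and 11.9 CPM at 6M and 8.79, 9.07 and 9.01 CPM at 12M. These groups were well apart, but the gene did not pass the test (−0.53, SE 0.10, edgeR adjusted p = 0.276). Its partner Col1a1 and Col3a1 of type III collagen both gave −0.54, and the metalloproteinase inhibitors Timp1, Timp2 and Timp3 gave −1.80, −0.30 and −0.34. Col5a1 (0.31) and Col15a1 (0.21) were the members on the high side. The median lay between −0.33 and −0.17 over the settings tried. No member was called by edgeR, and 1 was called lower by DESeq2 (0.322% of all genes). At an unadjusted p of 0.05 or less, 14 were lower and 2 higher (4.61% and 4.15% of all genes).

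Genes of the immune lists were mostly below 0 and none was called by edgeR, though without 12M-3 it called 1 complement gene lower. Whole testis does not show which cells made their transcripts. At an unadjusted p of 0.05 or less, 2 macrophage, 5 complement and 5 interferon-induced genes were lower and 0 higher. Of all genes, 4.61% were lower and 4.15% higher at that p. DESeq2 called 1, 2 and 0 members of these lists lower, against 0.322% of all genes. Of 19 macrophage genes, 17 were below 0 with a median of −0.24. Scaled to library size only, the list summed to 93.8 to 118 CPM at 6M and 76.9 to 91.8 CPM at 12M. Lower without overlap were 2 of the 19 (10.5%, against 7.59% of all genes). They were Csf1r, the receptor that macrophages need to survive, at −0.60, and the lysozyme gene Lyz2 at −0.63. Complement genes were below 0 in 15 of 19 (median −0.27, and −0.18 without 6M-3). The central component C3 had 9.48, 10.3 and 8.51 CPM at 6M and 3.66, 3.81 and 6.76 CPM at 12M, without overlap (−0.99, SE 0.24, edgeR adjusted p = 0.478). Genes induced by interferon were below 0 in 28 of 31 (median −0.18, from −0.32 without 6M-2 to −0.13 without 6M-3). Of these genes, 6 were lower and 1 higher without overlap, against 7.59% and 9.01% of all genes. The guanylate-binding Gbp2 gave −1.06 and Stat2 gave −0.34. Dhx58, at −0.92, lies in a locus with Kat2a whose reads gave −0.02. Serpin protease inhibitors were below 0 in 29 of 41 (median −0.19), with Serpina3n at −1.51 and Serpina3c at −0.79. Among serpins, 11 were lower and 1 higher without overlap, against 7.59% and 9.01% of all genes. Without 6M-3, 24 were below 0 (median −0.10). Antigen presentation genes had a median of −0.10 over 18, from −0.23 without 6M-2 to 0.00 without 6M-3. Genes of lymphocytes and plasma cells were above 0 in 10 of 13 (median 0.14), with 0 without overlap, among them Cd8b1 at 0.12 and Ccl5 at −0.00, but without 12M-3 only 6 were above 0 (median −0.04). Lcn2, which encodes lipocalin 2 and stands in the list of senescence and inflammation, had 174, 192 and 231 CPM at 6M and 106, 130 and 128 CPM at 12M (−0.71, edgeR adjusted p = 0.247). The other 10 tested members of that list had fold changes on both sides of 0, and the list's median was −0.04, and 0.01 without 12M-3.

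Other somatic cells showed smaller differences. Of 28 Sertoli cell genes, 20 were below 0 with a median of −0.08. Without overlap, 3 (10.7%) were lower and 2 (7.14%) higher, against 7.59% and 9.01% of all genes. Without 6M-3, 11 were below 0 (median 0.03), with 3 lower and 7 higher without overlap (13.8% and 14.3% of all genes). Kitl, the ligand of the receptor KIT on germ cells, gave −0.42, Shbg gave −0.44 and the tight junction gene Cldn3 gave 0.21. Clu, the most abundant by FPKM of the list, gave −0.10. No gene of peritubular myoid cells (12 tested, median −0.07, and −0.01 without 6M-3) or endothelial cells (17 tested, median −0.06, and −0.11 without 6M-2 or 12M-2) was without overlap. The share of all genes was 16.6%. The smooth muscle actin Acta2 gave −0.09 and the endothelial Sox17 gave 0.00. The 8 adipocyte genes had a median of −0.26, and of 0.04 without 12M-1, and Hba-a1 and Hba-a2, the hemoglobin genes of red blood cells, varied between libraries of the same age by far more than between the ages.

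The medians of most germ cell lists stood close to 0. The medians were 0.07 over 19 genes of undifferentiated spermatogonia, −0.07 over 12 of differentiating spermatogonia, 0.03 over 36 of meiosis and spermatocytes, 0.04 over 30 of round spermatids and acrosome and −0.01 over 25 of the piRNA pathway. The first was −0.00 without 12M-1, the third −0.00 without 6M-3 and the fifth 0.01 without 12M-3. Among them, Gfra1, a receptor of spermatogonial stem cells, gave 0.24, Ldhc, the lactate dehydrogenase of spermatocytes, gave 0.01, Tex14 gave 0.01 and Adam3 of round spermatids gave −0.08. Without overlap, 9 of the 30 round spermatid genes were higher and 2 lower, against 9.01% and 7.59% of all genes. These counts were 2 and 4 for undifferentiated spermatogonia and 2 and 3 for differentiating ones. They were 4 and 0 for meiosis and 2 and 1 for the piRNA pathway. At an unadjusted p of 0.05 or less, 6 round spermatid genes were higher and 0 lower. In each list of spermatogonia, 3 were lower and 0 higher (4.61% and 4.15% of all genes). All 26 genes of elongating spermatids were above 0, with a median of 0.13. Without overlap, 10 were higher and 0 lower, against 9.01% and 7.59% of all genes. Prm2, a protamine that packs the DNA of sperm, had 5120, 5604 and 5009 CPM at 6M and 5778, 5869 and 7510 CPM at 12M. Tnp2, a transition protein, had 3085, 3213 and 2878 CPM at 6M and 3319, 3368 and 4830 CPM at 12M. Their ages did not overlap, 12M-3 was the highest library in both, and neither passed the test (0.28 and 0.33, edgeR adjusted p = 0.546 and 0.569). Scaled to library size only, the list summed to 34806 to 36214 CPM at 6M and 36345 to 44392 CPM at 12M, again highest in 12M-3. Without 12M-3 its median was 0.04 and without 6M-3 0.08, with 20 of 26 above 0 in each, and from FPKM 20 were above 0. At an unadjusted p of 0.05 or less, 6 were higher and 0 lower (4.15% and 4.61% of all genes), and DESeq2 called 0. Axoneme genes were above 0 in 30 of 50 (median 0.03, and −0.01 without 6M-3), with 16 higher (9.01% of all genes) and 1 lower (7.59% of all genes) without overlap. Without 6M-3 and 12M-3 these were 20 and 7, against 20.9% and 20.4% of all genes.

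Housekeeping lists likewise moved little. Genes of cytosolic ribosomal proteins were above 0 in 62 of 76 (median 0.09). Of the 76, 11 were higher and 2 lower without overlap, against 9.01% and 7.59% of all genes. Without 12M-3, the numbers without overlap were 11 and 13 and the median was −0.00. Nuclear genes of oxidative phosphorylation had a median of 0.04 over 81, which was −0.03 without 12M-3 with 51 below 0, and the proteasome 0.00 over 38. The medians were −0.03 over 27 immediate early and heat shock genes, 0.01 over 21 genes of retinoic acid, −0.03 over 25 metallothionein and zinc transport genes and −0.06 over 22 imprinted genes, of which the first was 0.08 and the last 0.03 without 6M-3. In all, 2 of the 36 lists held a called gene, Leydig steroid synthesis and the kallikreins. Leaving libraries out changed the background too: without 12M-3 14.1% of all genes were higher and 12.2% lower without overlap, and without 6M-3 14.3% and 13.8%.

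**Figure D4:**
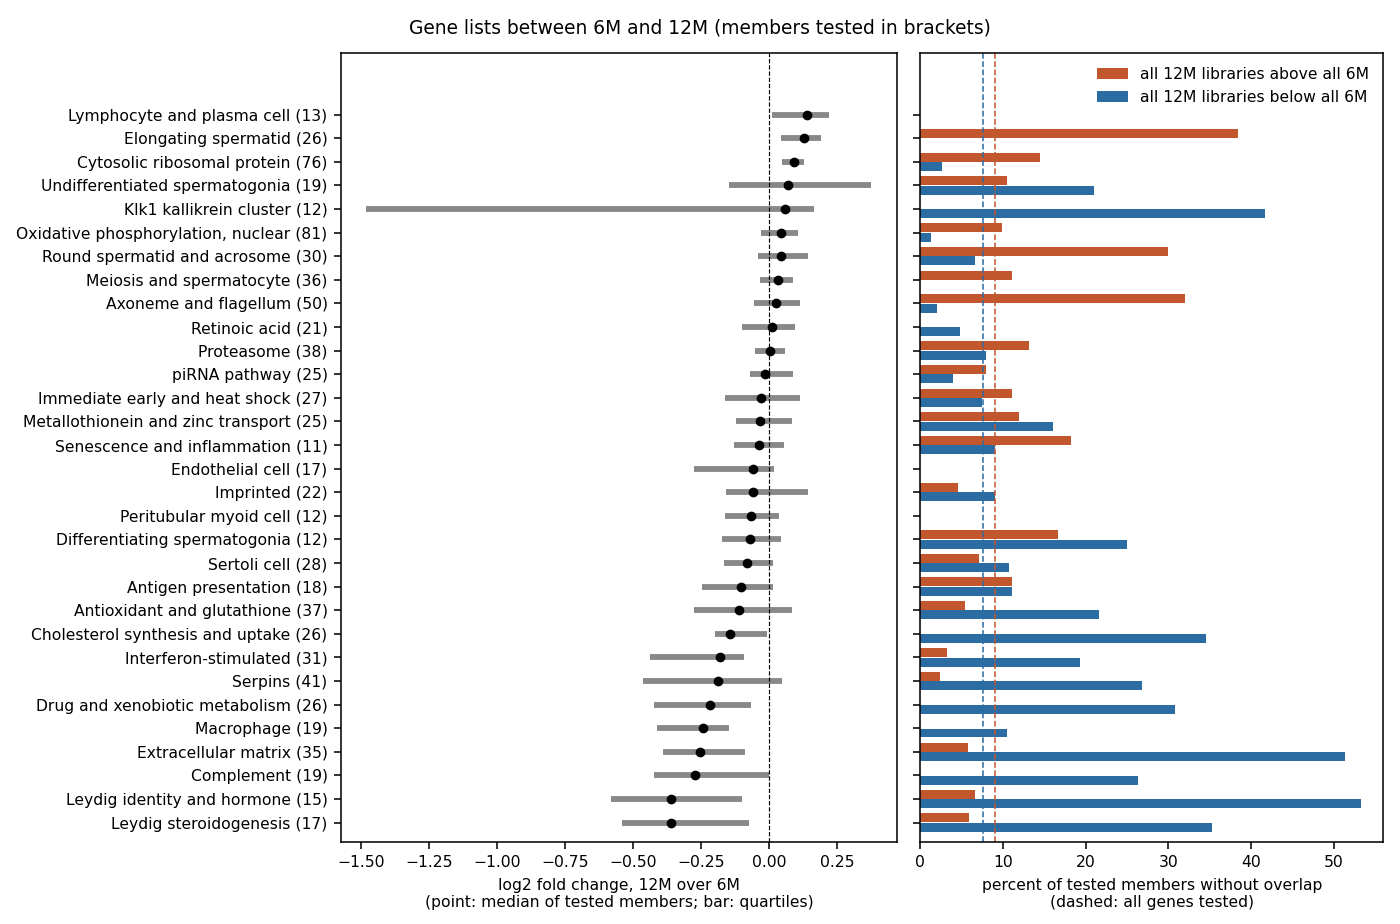
Left, the median log2 fold change of 12M over 6M of each gene list with 10 or more tested members, with quartiles as bars and the median of all genes as a dashed line. Right, the percent of tested members whose ages do not overlap, higher or lower at 12M, with dashed lines for all genes (9.01% and 7.59%). The Leydig lists have the lowest medians, both −0.36, and elongating spermatids are among the highest at 0.13.

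Some genes outside the lists had small p-values without passing the test. On the high side these were Rxfp2 (log2 fold change 0.60, edgeR adjusted p = 0.195), Hoxd10 (1.37, adjusted p = 0.247), Hoxa4 (0.36, adjusted p = 0.247), Tm2d3 (1.36, adjusted p = 0.261) and Nkx2-6 (0.34, adjusted p = 0.262). Rxfp2 encodes the receptor of INSL3, and in testis germ cells carry it. It had 10.96, 10.5 and 12.4 CPM at 6M and 16.9, 17.6 and 16.7 CPM at 12M, all 12M libraries above all 6M libraries. Exact reference transcripts took 47.7% of these reads at 6M and 4.52% at 12M, and with these alone the log2 fold change was −2.85 (edgeR adjusted p = 0.697). Hoxa4, a homeobox gene that germ cells express, had 53.5, 54.6 and 56.0 CPM at 6M and 73.4, 67.6 and 70.1 CPM at 12M, also without overlap. Tm2d3 shares its locus with Tarsl2, and the reads of that locus gave 0.11. Pgrmc1, a progesterone-binding membrane protein, had 70.4, 75.6 and 89.4 CPM at 6M and 76.0, 69.9 and 70.3 CPM at 12M, which overlap (−0.12, edgeR adjusted p = 0.693).

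The libraries of 3M and 18M, which share no mouse with those above, give the same genes over a longer span of age. Of 18068 genes tested there, 12 (0.0664%) were called, 8 of them lower at 18M (0.0443%). Of the 11 genes called between 6M and 12M, 10 were tested, 8 had the same sign and 3 were called. Over all genes tested in both comparisons, 11754 of 17900 (65.7%) had the same sign. The 3 were Klk1b24, which fell by 3.09 on the log2 scale from 3M to 18M (edgeR adjusted p = 0.0019), Klk1b21, which fell by 3.37 (adjusted p = 0.0127), and Cyp17a1, which fell by 1.43 (adjusted p = 0.0351). Klk1b27 fell there by 3.71 (adjusted p = 0.0019). For Cyp11a1 the value was −1.53 (adjusted p = 0.183), for Vmn1r181 0.75 (adjusted p = 0.38) and for Gm13483 0.75 (adjusted p = 0.31). Of the genes whose loci gave under 0.2, Tmem237 (−0.12), Als2cr11 (0.01) and Inpp5j (−0.45) were not called and Ech1 was at 1.98 with the opposite sign (adjusted p = 0.516).

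Scaled together over the 12 libraries, Cyp17a1 had mean levels of 159 ± 33.0 CPM (SD, n = 3) in 3M, 135 ± 6.80 in 6M, 85.3 ± 3.48 in 12M and 59.2 ± 6.93 CPM in 18M libraries. Klk1b24 had 16.1 ± 2.98, 9.72 ± 1.24, 3.51 ± 0.285 and 1.91 ± 0.248 CPM at the same ages. In both, the means stood in the order of age, and the 3M and 6M libraries of Cyp17a1 overlapped while its 12M and 18M libraries did not. Klk1b21 had 20.5 ± 1.16, 10.8 ± 1.91, 3.13 ± 0.522 and 2.004 ± 0.883 CPM, with overlap between 12M and 18M. Insl3 had 593 ± 33.8, 695 ± 251, 453 ± 14.9 and 482 ± 75.6 CPM, with no such order. Hsd3b1 had none either, with 35.2 ± 3.66, 48.5 ± 5.57, 33.9 ± 4.42 and 43.2 ± 13.2 CPM, highest at 6M. Ptgds, lower at 12M than at 6M, had a log2 fold change of 0.28 from 3M to 18M (edgeR adjusted p = 0.523). Extracellular matrix genes were below 0 in 29 of 35 from 3M to 18M (median −0.30), and so were 12 of 16 genes of Leydig steroid synthesis (−0.16), 11 of 15 that mark Leydig cells (−0.22), 8 of 12 kallikreins (−0.28), 18 of 26 of drug metabolism (−0.22), 19 of 26 of cholesterol synthesis (−0.09) and 21 of 31 induced by interferon (−0.24). Macrophage genes were below 0 in 11 of 19 (−0.12) and complement genes in 10 of 18 (−0.07). Serpins were below 0 in 18 of 39 (0.03), antioxidant genes in 18 of 37 (0.004), Sertoli cell genes in 11 of 28 (0.07) and antigen presentation genes in 6 of 18 (0.08). Elongating spermatid genes were above 0 in 25 of 26. Akr1c12 rose there by 1.68 on the log2 scale (edgeR adjusted p = 0.0127).

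**Figure D5:**
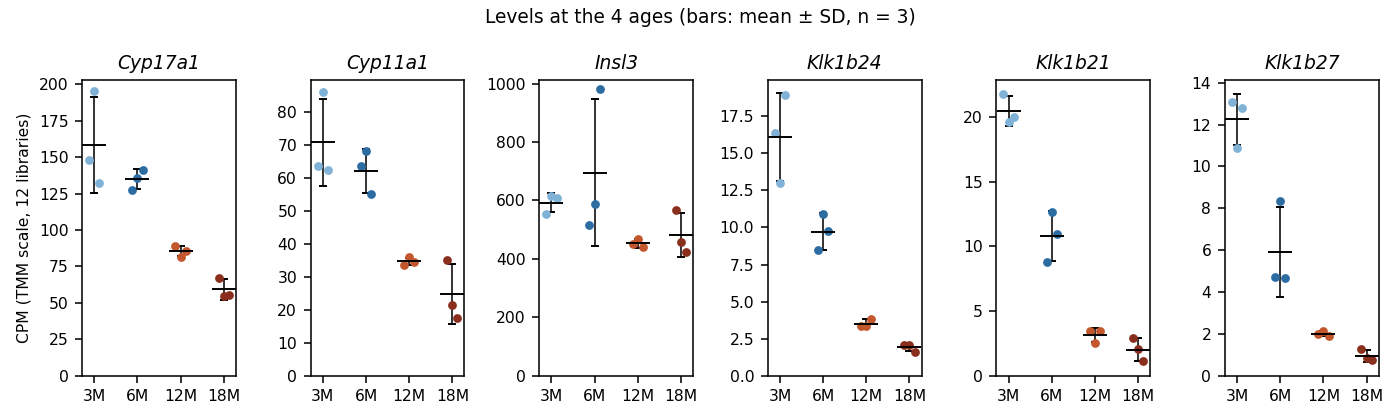
Read counts scaled to library size (CPM, TMM scale over 12 libraries) of 6 genes at the 4 ages, with points for libraries and bars for the mean ± SD of 3 mice. Mean levels of Cyp17a1, Klk1b24 and Klk1b21 are lower at each later age, and Insl3 is highest at 6M, where 1 library stands apart.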

How the data were processed

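Total RNA depleted of ribosomal RNA was sequenced from testis with a kit that keeps no strand and paired-end reads. The authors aligned reads to mm10 with HISAT2 and assembled and quantified transcripts with StringTie 1.3.3b against RefSeq. They deposited an estimated count per transcript and library (the length of the transcript times its mean coverage, per read length, brought up to the next whole number) and an FPKM, which the authors scaled by length and mapped fragments. Here the deposited estimated counts, already whole, were summed per gene over class codes =, c, j and o. The test was the quasi-likelihood F-test of edgeR 4.0.16 (R 4.3.3), after TMM scaling and filterByExpr, and p-values were adjusted by Benjamini-Hochberg over every tested gene. The fit held no library of another age. Whether mice of an age were littermates is unclear, so p-values measure only the spread between the mice within each age. A difference of litter between the ages could not be told apart from age. Alternatives were DESeq2 1.42.0, limma-voom (limma 3.58.1), other normalizations, filters, class codes and dispersions, all 12 libraries, the mouse number as a replicate block, limma on log2(FPKM + 0.1) and log2(FPKM + 1), and each library left out. Locus sums were added after seeing the data. Python 3.11.15 with pandas 2.3.3 and Biopython 1.88 served for sums and alignments.

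Named are the called genes with a mean of 1 CPM or more and no overlap, filled to 10 a direction by the smallest p, the 3 members with the highest mean FPKM of each of 36 lists, and 8 genes that the study or earlier results named. Others were named after their values were seen. The values of some genes are not reported here. The members and lists were chosen with earlier results of these data known. In simulated counts 200 genes were changed, all with a mean of 1 CPM or more. Of 1.5-fold, 2-fold and 4-fold changes between 6M and 12M, edgeR called 20.5%, 86% and 99.5%. It also made 10, 18 and 18 false calls among 17939, 17941 and 17937 genes tested. As a share of all calls, the false ones exceeded the 0.05 set for the adjusted p at each fold. The main fit did not pair the ages by mouse number. The correlations of the deviations of same-numbered libraries were −0.042, 0.028 and −0.013 over 15407 genes. Whether libraries of the same number were handled together is not given. The share of reads by class code was compared with a two-sided exact permutation test, for which 3 against 3 allow no p under 0.1.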

Additional observations from a re-analysis of the deposited data

Results flagged for a closer look

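Groups of 3 libraries are too small for a test of outliers. Outside the gene sums, 3 assembled transcripts between genes differed between 6M and 12M. A transcript on chromosome 3 (51341481 to 51344013) was listed at 0 reads in each 6M library and at 469, 470 and 484 reads in the 12M libraries. It was also at 0 in the 3M libraries and at 455, 0 and 0 reads in the 18M libraries. A transcript on chromosome 13 (13890955 to 13897896) was listed at 0 reads in each 6M library and at 1417, 1998 and 2322 reads at 12M, but at 2174, 0 and 2303 reads at 3M and at 0, 0 and 2817 reads at 18M. An exact 0 beside many reads in a library of the same age can be a failed estimate of the assembler, which was not tested. A transcript on chromosome 4 (137062918 to 137118266) had 1599, 1677 and 1619 reads at 6M and 401, 387 and 381 reads at 12M. Its log2 fold change over the locus was −2.22 (edgeR adjusted p = 0.00101). It had 563, 569 and 495 reads at 3M and 525, 493 and 424 reads at 18M, so only the 6M libraries stood apart.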

How the results depend on the processing

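Of 18086 genes, 11 were called between 6M and 12M. The count was 99 with DESeq2, 3 with all 12 libraries in the fit, 3 with locus sums, 1584 at an unadjusted p, and 5 to 22 with a library left out (5 without 6M-3, 22 without 6M-2, 17 without 12M-2 and 19 without 12M-3). With the mouse number as a replicate block it was 3, though samples share only the number. Between 3M and 18M, 12 genes were called, 266 with DESeq2, 7 with the replicate block and 15 to 25 with a library left out (23 without 3M-3, 25 without 18M-1 or 18M-2). The 8 of 10 genes with the same sign in both comparisons became 78 of 98 with DESeq2. With only exactly matching transcripts, 9 genes were called, of which 0 were among the 11, and the signs of Gm13483 (−1.58), Rxfp2 (−2.85), Als2cr11 (0.11), Dhx58 (0.59), Sohlh2 (0.35) and Col15a1 (−0.67) reversed. With locus sums those of Mpp4 (−0.087), Ech1 (0.052), Inpp5j (0.19) and Sohlh2 (0.19) reversed, and with all class codes that of Inpp5j (0.19). The cause was not tested. The differences in class shares with a library left out ran from −0.0033 to 0.0398 percentage points for intronic, −0.0623 to 0.223 for intergenic (−0.0496 without 12M-1) and −0.0019 to 0.0549 for antisense transcripts. The median fold change of all genes moved by 0.0296 at most on the log2 scale. At this depth and with 3 mice an age, most 1.5-fold changes would be missed.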

Other observations

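The shares of reads outside the gene sums lay within the spread between mice at both ages. Intronic transcripts took 0.581% ± 0.0058 of the reads at 6M (SD, n = 3) and 0.601% ± 0.043 at 12M (two-sided exact permutation test, p = 0.7). Transcripts between genes took 3.82% ± 0.28 and 3.90% ± 0.27 (exact permutation test, p = 0.7), and transcripts antisense to an exon took 0.798% ± 0.025 and 0.834% ± 0.065 (exact permutation test, p = 0.5).

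Of 30767 loci formed from overlapping exons, 1104 held several genes and the largest held 40.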
